A study of Arabidopsis thaliana with 12 samples.

Results

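COR15A (AT2G42540) and COR15B (AT2G42530) are a pair of neighbouring Arabidopsis thaliana genes for cold-induced proteins of the chloroplast. Both were taken by locus, and each was measured by a single probe set, so that 2 of the 22746 probe sets tested are described here on all 12 arrays. The study measured transcripts in the entire aerial part of soil-grown plants of the accession Col-0, with 1 array per sample and 3 biological replicates in each of 4 groups. The groups were sid2-1 and wild type (WT) kept for 3 weeks at 4 °C, and sid2-1 and WT taken at 22 °C. All plants were first grown at 22 °C under a photoperiod of 12 h for about 23 days, and the cold groups then stayed under the same photoperiod. The sid2-1 mutant, in the Col-0 background, carries a lesion in the isochorismate synthase gene ICS1 and makes little salicylic acid in response to pathogens. Plants at 4 °C were older by the 3 weeks of treatment, and age and temperature cannot be told apart. The labels place the harvest at ZT4, that is 4 h after lights on, in a protocol text that names the cold treatment. A bracketed number stands, without explanation, in the titles of the WT arrays at 22 °C alone. If it marks another batch, that batch cannot be told apart from the group in the WT cold response, the mean cold response, the genotype difference at 22 °C and the interaction.

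When Arabidopsis is moved to low temperature, transcription factors of the CBF family bind the C-repeat element in the promoters of their target genes, and the COR (cold-regulated) genes are among the best known of these targets. COR15A and COR15B belong to the late embryogenesis abundant (LEA) proteins, which are hydrophilic and mostly unfolded in water. Both are imported into the chloroplast stroma, where they are known for protecting the inner envelope and other membranes during freezing and the loss of water that comes with it. Salicylic acid is a defence hormone that also accumulates in plants kept in the cold.

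Values are log2 signals as deposited, made with GCRMA, and a step of 1 is a doubling. The arrays had nearly equal medians of 4.39 to 4.47, and replicates correlated at 0.978 to 0.990 across probe sets. The lowest value in the table was 2.2 and the highest 14.46. Both genes stayed far above the low end, since the lowest value of either gene on any array was 7.96. At the other end COR15A reached 13.42 in WT at 4 °C, while the maxima of the arrays were 13.86 to 14.46. Whether the scale flattens near its top was not tested. Of 14 leaf markers the single one with a named probe set, the Rubisco activase gene RCA, stood between 13.16 and 14.01 on all arrays. Of 5 measured root markers, 4 were under 4 on every array, and EXPA7 was at the lowest value on all 12. The remaining root marker, LPR2, stood between 8.25 and 10.38. Each probe set averages over all cells of the shoot, so that more cells with a transcript and more transcript per cell cannot be told apart.

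The first question was how far each gene differed between plants at 4 °C and plants at 22 °C. COR15A stood at 12.74, 13.13 and 13.36 in sid2-1 at 4 °C, against 10.02, 8.84 and 11.22 in sid2-1 at 22 °C (replicates 1 to 3). In WT it stood at 13.22, 12.63 and 13.42 at 4 °C, against 9.88, 9.06 and 11.16 at 22 °C. All 6 cold arrays were thus above all 6 warm arrays, with a gap of 1.41 between the lowest cold and the highest warm value. How many of all probe sets part in this way was not counted, here or for COR15B below. COR15A rose 8.28-fold in sid2-1, a log2 change of 3.05 ± 0.66 (SE, n = 3 against 3, limma adjusted p = 0.0314), and 8.32-fold in WT, a log2 change of 3.06 ± 0.66 (adjusted p = 0.0186). The 95% intervals ran from 2.93-fold to 23.4-fold in sid2-1 and from 2.94-fold to 23.6-fold in WT. For scale, limma called 3.20% of all probe sets higher and 3.08% lower in the cold response of sid2-1, and 6.81% higher and 6.19% lower in that of WT. By the size of the log2 rise COR15A ranked 59 among the 22746 probe sets in sid2-1 and 129 in WT.

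Over both genotypes the mean log2 response of COR15A was 3.05 ± 0.47 (SE, n = 6 against 6, adjusted p = 0.00250), and it was called with any single array left out. In WT it was lost without WT replicate 1 or 2 at 22 °C or WT replicate 1 or 3 at 4 °C (log2 changes 2.98, 2.57, 2.99 and 2.89, adjusted p = 0.0524 to 0.0576) and in a fit of the WT groups alone (adjusted p = 0.0667). In sid2-1 it was lost without replicate 1 or 2 at 22 °C, without any replicate of sid2-1 at 4 °C, or without WT replicate 1 at 4 °C (log2 changes 2.46 to 3.22, adjusted p = 0.0529 to 0.0897) and in a fit of the sid2-1 groups alone (adjusted p = 0.123). Here and below, n = 6 counts same-numbered arrays of both genotypes as separate, although at 22 °C they stood close together for COR15A. The SE and adjusted p of its mean response may therefore be too small. A random block by replicate number within temperatures, at a correlation of 0.176 shared by all probe sets, gave a limma adjusted p of 0.00327.

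COR15B stood at 12.11, 12.47 and 12.73 in sid2-1 at 4 °C, against 9.35, 8.45 and 8.76 in sid2-1 at 22 °C. In WT it stood at 12.35, 11.75 and 12.43 at 4 °C, against 9.55, 7.96 and 8.30 at 22 °C. Again the cold and warm arrays did not overlap, and the gap of 2.2 was wider than for COR15A. The gene rose 12.0-fold in sid2-1, or 3.58 ± 0.42 in log2 units (SE, n = 3 against 3, limma adjusted p = 0.00243) and a 95% interval of 6.16-fold to 23.3-fold. In WT it rose 11.9-fold with a log2 change of 3.57 ± 0.42 (adjusted p = 0.00161) and an interval of 6.12-fold to 23.1-fold. By the size of the rise COR15B ranked 34 among all probe sets in sid2-1 and 78 in WT. The mean log2 response of both genotypes was 3.58 ± 0.30 (SE, n = 6 against 6, adjusted p = 0.000148), in a contrast that called 10.5% of all probe sets higher and 9.94% lower. COR15B was called in each genotype with any single array left out.

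**Figure D1:**
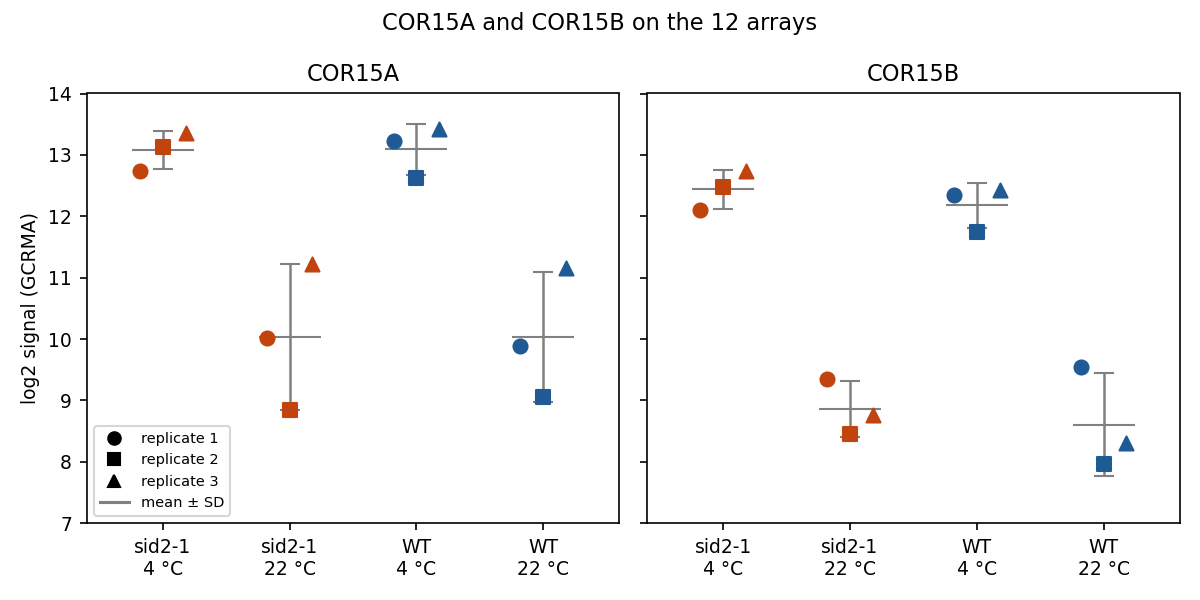
Log2 signal of COR15A (left) and COR15B (right) in the 4 groups; each point is an array, its shape is the replicate number, colour marks the genotype, and grey bars are mean ± SD (n = 3). All cold arrays lie above all warm arrays for both genes, and at 22 °C COR15A is highest on replicate 3 and COR15B on replicate 1 in both genotypes.

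The second question was whether either gene depended on the genotype. At 4 °C COR15A averaged 13.08 ± 0.31 in sid2-1 and 13.09 ± 0.41 in WT (SD, n = 3 each). At 22 °C it averaged 10.03 ± 1.19 in sid2-1 and 10.03 ± 1.06 in WT. The order of the 4 groups therefore parted by temperature, and the genotypes at each temperature did not differ beyond their spread. The differences were -0.01 ± 0.66 at 4 °C and -0.01 ± 0.66 at 22 °C (SE, limma adjusted p = 1.0 for both), with 95% intervals of -1.51 to 1.49 at either temperature. The SE of 0.66 pools the spread of both temperatures, and the compared groups fitted alone gave an SE of 0.28 at 4 °C and 0.87 at 22 °C. Of all probe sets 0.615% were called between the genotypes at 4 °C and 0.00440% at 22 °C. These shares stand for 140 and 1 probe sets, against 27 and 0 (1054 at an unadjusted p under 0.05) with limma and the block described next. Leaving out single arrays moved the 140 to 84 without sid2-1 replicate 1 at 4 °C, 86 without sid2-1 replicate 3 at 22 °C and 281 without WT replicate 3 at 4 °C.

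At 22 °C same-numbered arrays of both genotypes stood close together for COR15A, and sid2-1 minus WT was 0.14, -0.22 and 0.06 for numbers 1, 2 and 3, far below the SD within either genotype. At 4 °C the same differences were -0.48, 0.50 and -0.06, and for numbers 1 and 2 they exceeded the SD within either genotype. Over 12422 probe sets with a mean above 4, deviations from the group mean correlated between same-numbered arrays of both genotypes at 0.283 to 0.467 at 22 °C and at 0.211 to 0.252 at 4 °C. With the number as a block within each temperature, the 95% interval for COR15A narrowed to -0.53 to 0.52 at 22 °C, which is 0.690-fold to 1.44-fold, and to -0.54 to 0.51 at 4 °C. This fit shares 1 estimate of the spread between the temperatures, with an SE of 0.20 at each, while the groups at 4 °C fitted alone gave an SE of 0.28, so that the narrower interval at 4 °C draws on the close pairs at 22 °C.

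COR15B averaged 12.44 ± 0.31 in sid2-1 and 12.18 ± 0.37 in WT at 4 °C (SD, n = 3 each), and 8.85 ± 0.46 in sid2-1 and 8.60 ± 0.84 in WT at 22 °C. Values of the genotypes overlapped at both temperatures. The differences were 0.26 ± 0.42 at 4 °C (SE, limma adjusted p = 0.982) and 0.25 ± 0.42 at 22 °C (adjusted p = 1.0). Same-numbered arrays differed by -0.24, 0.72 and 0.30 at 4 °C and by -0.20, 0.49 and 0.46 at 22 °C, so that sid2-1 was the higher on 2 of 3 pairs at each temperature. The 95% intervals without the block were -0.70 to 1.22 at 4 °C and -0.71 to 1.21 at 22 °C. Under the block the intervals were -0.36 to 0.88 at 4 °C and -0.37 to 0.87 at 22 °C.

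The cold response of sid2-1 minus that of WT was -0.01 ± 0.93 for COR15A and 0.01 ± 0.60 for COR15B on the log2 scale (SE, limma adjusted p = 1.0 for both), in a contrast that called 0.0615% of probe sets. The 95% intervals of this fit were -2.13 to 2.12 for COR15A and -1.35 to 1.37 for COR15B. As folds, they ended at 0.229 and 4.34 for COR15A and at 0.393 and 2.58 for COR15B. With the block, added after the data were seen, the 95% intervals were -0.75 to 0.74 for COR15A and -0.87 to 0.89 for COR15B. As folds, those ended at 0.593 and 1.67 for COR15A and at 0.548 and 1.85 for COR15B. Differences inside the intervals of either fit were not detectable with 3 arrays a group.

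**Figure D2:**
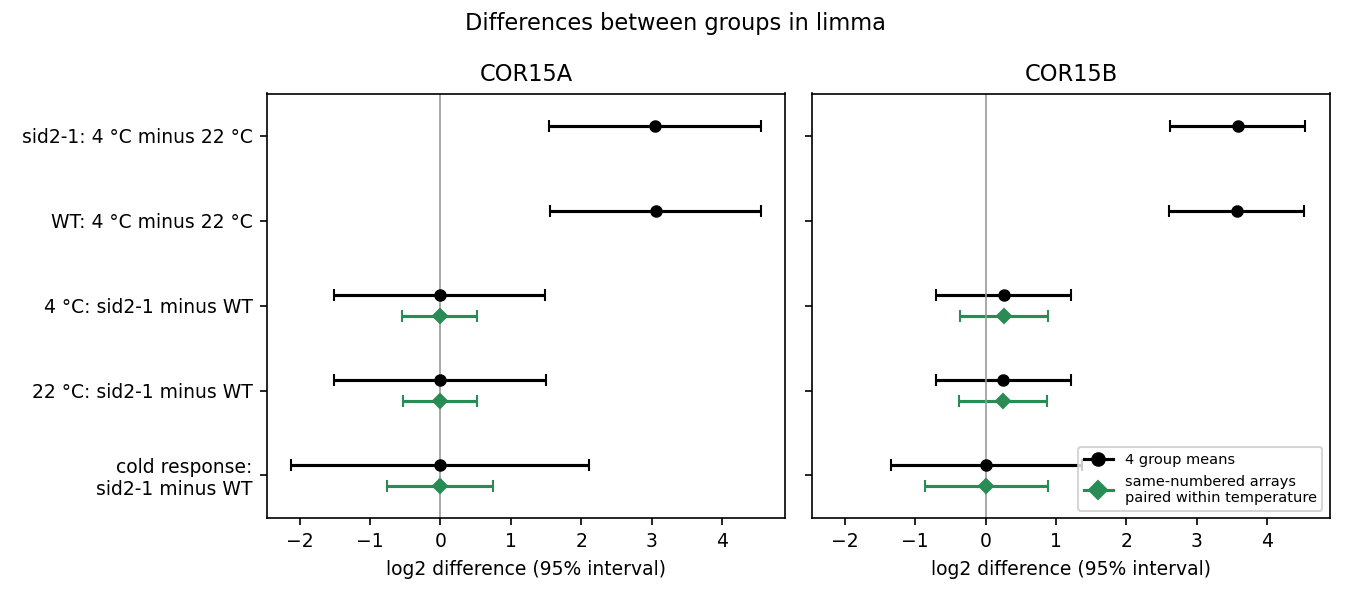
Log2 differences between groups for COR15A (left) and COR15B (right) with 95% intervals; black points come from the fit of 4 group means, green points from the fit that pairs same-numbered arrays within a temperature. Cold responses lie near 3.05 and 3.58 in both genotypes, while the genotype differences and the interaction lie near 0, with narrower intervals once arrays are paired.

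The third question was whether both genes changed by the same amount. Different probe sets bind with different strength, so the level of COR15A was not set against that of COR15B, and only the change of their log2 difference between arrays was read. COR15A minus COR15B was 0.63, 0.66 and 0.63 in sid2-1 at 4 °C, against 0.67, 0.39 and 2.46 in sid2-1 at 22 °C. In WT it was 0.87, 0.88 and 0.99 at 4 °C, against 0.33, 1.1 and 2.86 at 22 °C. The difference was thus nearly fixed in the cold, with an SD of 0.017 in sid2-1 and 0.067 in WT. At 22 °C the SD was 1.12 in sid2-1 and 1.30 in WT, and the 2 arrays numbered 3 stood apart from the other 4.

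Averaged over the genotypes, COR15A minus COR15B was lower by 0.53 on the log2 scale at 4 °C than at 22 °C (value -0.525), which did not pass an exact two-sided permutation test within genotypes (p = 0.415, with 0.005 the smallest p that 400 arrangements allow). Without both 22 °C arrays numbered 3 the sign turned, to 0.15 (exact permutation p = 0.380). In that setting the log2 cold response of COR15A was 3.65 ± 0.45 in sid2-1 and 3.62 ± 0.45 in WT (SE), and that of COR15B 3.54 ± 0.52 in sid2-1 and 3.42 ± 0.52 in WT. The smaller rise of COR15A over all arrays thus rests on those 2 arrays. The setting was chosen after the values were seen.

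**Figure D3:**
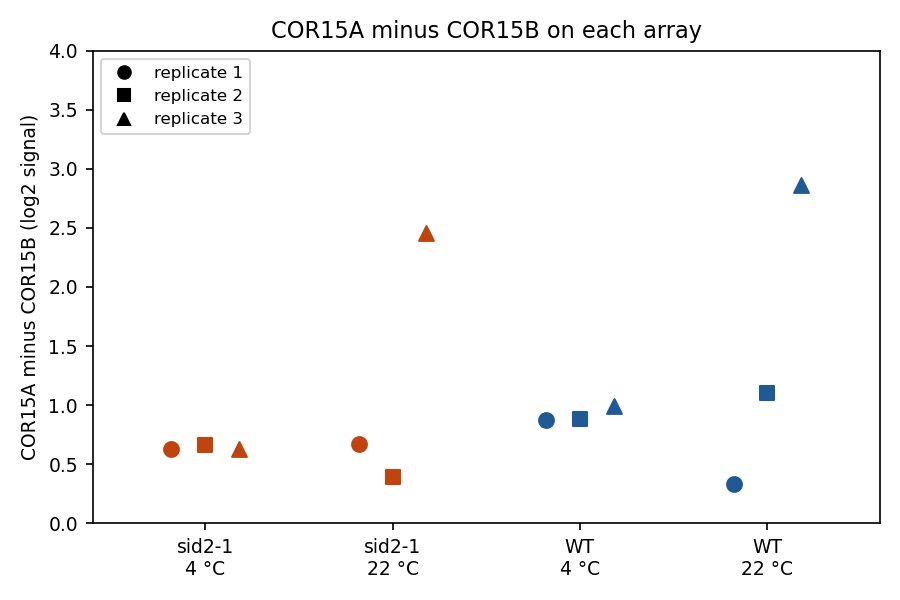
COR15A minus COR15B (log2 signal) on each array by group; shape is the replicate number and colour the genotype, and only shifts between arrays can be read, not the distance from 0. Cold arrays lie between 0.63 and 0.99, and the 2 warm arrays numbered 3 lie at 2.46 and 2.86, apart from the other warm arrays at 0.33 to 1.1.

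Both genes were among the more variable transcripts at 22 °C. The SD of COR15A pooled over the genotypes was 0.37 at 4 °C and 1.13 at 22 °C, and that of COR15B was 0.34 at 4 °C and 0.67 at 22 °C. The median over probe sets with a mean above 4 was 0.30 at 4 °C and 0.27 at 22 °C. In the spread at 22 °C COR15A exceeded 99.4% of these probe sets and COR15B 96.1%, while at 4 °C they exceeded 64.8% and 60.4%. At 22 °C the replicates of COR15A had the order 3, 1, 2 in both genotypes and those of COR15B the order 1, 3, 2 in both, and 26.2% of the 10830 probe sets without tied arrays had an order common to both genotypes. At 4 °C the orders of the genotypes differed for both genes, although number 3 was highest throughout.

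Some other cold-regulated genes were also highest on the warm arrays numbered 3. Of the 12 measured genes on a list of the CBF regulon and COR genes, 5 were highest on number 3 in both genotypes at 22 °C, namely COR15A, LTI30, COR27, AT1G16850 and AT4G30650, while 2 were highest on number 1 and 1 on number 2. On that number COR15A stood above its group mean by 1.19 in sid2-1 and 1.13 in WT on the log2 scale, and AT1G16850 by 0.71 in sid2-1 and 1.11 in WT. LTI30 stood 0.56 above the mean in sid2-1 and 0.64 in WT. COR15B was below its mean there, by 0.093 in sid2-1 and 0.303 in WT (values -0.093 and -0.303), and was instead highest on number 1. At 4 °C 6 of the 12 were highest on number 3 in both genotypes. The share of all probe sets highest on number 3 was not counted. Over probe sets with a mean above 4, same-numbered arrays deviated together, most on number 3 at 22 °C (correlation 0.467). The counts are therefore not read as particular to these genes. The labels give only the number, and what goes with it was not tested.

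**Figure D4:**
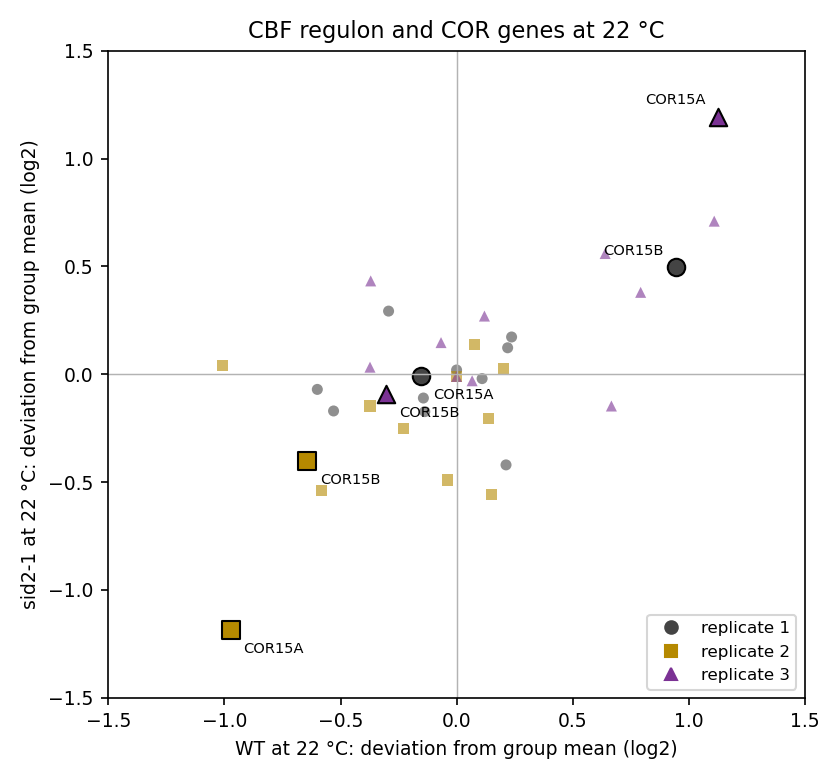
Deviation of each array at 22 °C from its group mean (log2), sid2-1 on the vertical and WT on the horizontal axis, for the 12 measured genes on the CBF regulon and COR list; shape and colour mark the replicate number, and large outlined points are COR15A and COR15B. COR15A lies at 1.19 in sid2-1 and 1.13 in WT on number 3, and COR15B below its mean there, at -0.093 in sid2-1 and -0.303 in WT.

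The rest of the CBF regulon was read from a list of 34 cold-regulated genes, of which 12 have a named probe set. In sid2-1 9 of the 12 rose and none fell at an adjusted p under 0.05 in limma, with a median log2 change of 2.70 against 0.00 over all probe sets. Of all probe sets 3.20% were called higher and 3.08% lower there. In WT 7 rose and 1 fell, with a median of 2.47 against 0.00 over all probe sets, of which 6.81% were called higher and 6.19% lower. In the mean response of both genotypes, 9 rose and 1 fell, where 10.5% of all probe sets were called higher and 9.94% lower. Leaving out COR15A and COR15B, 7 of the other 10 rose and none fell in sid2-1, and 5 rose and 1 fell in WT. The median of these 10 was 2.35 in sid2-1 and 1.88 in WT.

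LTI30, a dehydrin of cold-acclimated plants, had the largest mean response of the list, at 78.5-fold (log2 change 6.30 ± 0.32, SE, n = 6 against 6). It stood at 11.61, 12.69 and 13.06 in sid2-1 at 4 °C, against 5.93, 5.51 and 6.56 in sid2-1 at 22 °C. In WT LTI30 stood at 12.49, 12.13 and 12.75 at 4 °C, against 5.72, 6.28 and 6.96 at 22 °C. AT1G16850 rose 36.1-fold and COR27, a cold gene that acts on the circadian clock, 29.9-fold in the mean response. COR15B, the fourth of the 4 largest responses named under the rule, was thus well below these in size, and COR15A came next at 8.30-fold.

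AT4G30650 and AT4G30660, of a family of small low-temperature and salt responsive proteins, were named after their values were seen. AT4G30650 rose 8.02-fold in sid2-1 and 5.72-fold in WT. AT4G30660 did not pass the test in sid2-1 (log2 change -0.32 ± 0.19, SE) and fell by 0.71 in WT (SE 0.19, adjusted p = 0.0463). COR47, the dehydrin that shares the COR name, passed in sid2-1 at a log2 change of 2.19 ± 0.47 (adjusted p = 0.0294) and stood at 1.33 ± 0.47 in WT (adjusted p = 0.104). The difference between the genotypes in the cold response did not pass for COR47, AT4G30650 or AT4G30660 (limma interaction adjusted p = 0.936 for each).

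COR15A and COR15B belong to the LEA_4 family, of which 15 of 18 listed genes were measured. COR15A and COR15B were the 2 members that rose, and none of the other 13 passed limma's test in either genotype or in the mean response. Of all probe sets, 10.5% were called higher in the mean response, 3.20% in sid2-1 and 6.81% in WT. The 2 that rose are the pair the report was built on, so the count is not read as a trait of the family. Of those 13, 11 were under 4 on all 12 arrays, close to the low end of the scale, so that a change below that level would not be seen. The other 2 had mean log2 changes of 0.19 ± 0.13 for AT2G03740 and 0.07 ± 0.08 for AT5G44310 (SE, n = 6 against 6). AT2G03740 held the same value, 5.63, on 6 arrays, and AT1G72100 held 2.2 on all 12. The median log2 change of the 13 was 0.01 in sid2-1 and 0.00 in WT.

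**Figure D5:**
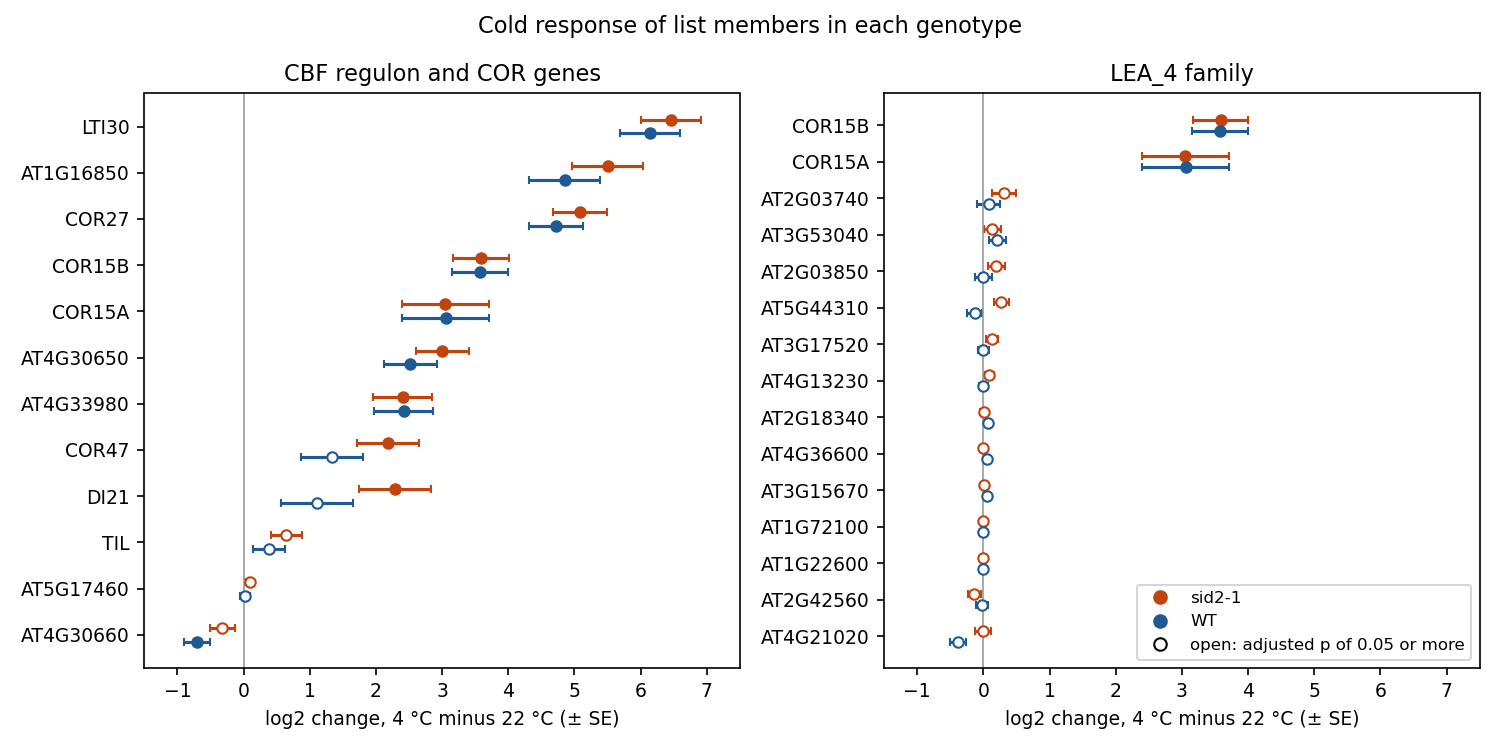
Log2 change of 4 °C minus 22 °C (± SE, n = 3 against 3) for measured genes of the CBF regulon and COR list (left) and of the LEA_4 family (right), sid2-1 and WT as separate points; filled points passed limma's adjusted p of 0.05. COR15A and COR15B stand near 3.05 and 3.58 in both genotypes, below LTI30 at over 6 on the left and apart from 13 relatives near 0 on the right.

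Few of the regulators upstream of COR15A and COR15B could be read, since 4 of 30 listed genes had a named probe set (5 probe sets). The others may still be on the array, among probe sets without a single named gene. GI (GIGANTEA), a clock gene, was the single one of the 5 called in the mean response, near the 20.5% of all probe sets called there. GI rose 5.86-fold in sid2-1 and 3.19-fold in WT, though the difference did not pass (limma interaction adjusted p = 0.936). It stood at 9.30, 9.16 and 9.87 in sid2-1 at 4 °C, against 7.16, 7.02 and 6.50 in sid2-1 at 22 °C, and at 9.17, 9.09 and 9.49 in WT at 4 °C, against 7.84, 7.47 and 7.42 in WT at 22 °C. Of 26 genes for chloroplast membrane lipids and the envelope, FZL, a dynamin-like protein of plastid membranes, was the single one with a named probe set. It stood at a mean log2 change of -0.39 ± 0.19 (SE, adjusted p = 0.199). Of 7 measured reference genes 1, AT4G34270, rose 1.39-fold in the mean response, where 10.5% of all probe sets were called higher. The median log2 change of the 7 was 0.14.

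LPR2 and TUA1, markers of other tissues, also differed between the temperatures. LPR2, the single root marker well above the low end, rose 1.97-fold in the mean response, where 10.5% of all probe sets were called higher. The other 4 did not pass. The summed linear signal of the 5 root markers is nearly all that of LPR2, since the other 4 were under a log2 value of 4 on every array. This sum was 599 to 713 in sid2-1 at 4 °C, against 328 to 477 in sid2-1 at 22 °C, and 966 to 1356 in WT at 4 °C, against 488 to 553 in WT at 22 °C. TUA1, the single one of 12 flower and pollen markers with a named probe set, rose by 0.59 on the log2 scale (adjusted p = 0.0416), with signals of 153 to 296 in sid2-1 at 4 °C, against 137 to 207 in sid2-1 at 22 °C, and of 276 to 290 in WT at 4 °C, against 136 to 190 in WT at 22 °C. RCA, the leaf marker, was lower in the cold, with a mean log2 change of -0.52 ± 0.10 (SE, adjusted p = 0.00677). The part of tissue make-up in the COR15A and COR15B results was not tested.

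On chromosome 2 COR15B and COR15A are adjacent loci in the TAIR10.1 gene table. Of the 20 loci within 10 on either side, 5 have a named probe set, and 1 of the 5 was called in the mean cold response, in which 20.5% of all probe sets were called in either direction, so the count is near the share over all probe sets. This was TBL39 (AT2G42570), 3 loci from the pair, a member of a family of cell wall acetylation proteins. It rose by a log2 change of 1.58 ± 0.34 in sid2-1 (SE, adjusted p = 0.0296) and stood at 0.86 ± 0.34 in WT (adjusted p = 0.143). The difference of these responses did not pass (limma interaction adjusted p = 0.936). AT2G42520, next to COR15B, stood at a mean log2 change of 0.12 ± 0.21, AT2G42490 at -0.32 ± 0.12, and AT2G42560, a LEA_4 gene 2 loci from COR15A, at -0.08 ± 0.07. AT2G42560 and AT2G42480 were under 4 on all arrays.

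The genes most like each of the pair were ranked by Pearson correlation over the 12 arrays among 6668 other probe sets of a single gene with a mean above 4. These values are descriptions, since the arrays fall into 2 temperatures and any cold-induced gene scores high. COR15B was most like CHL, a lipocalin of the chloroplast (r = 0.984), AT3G55580 (0.977), COR27 (0.973), the plastid-encoded rbcL (0.972), PWD, an enzyme of starch breakdown (0.971), and AT3G17780 (0.970). COR15A was most like AT2G43640 (0.975), AT3G07480 (0.966), AT1G16850 (0.959), AT1G20580 (0.959), AT2G40765 (0.956) and AT5G20110 (0.955). The 2 lists of 6 had no gene in common, and COR15B ranked 47 for COR15A (r = 0.911), while COR15A ranked 103 for COR15B.

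Taking the group means away leaves what varied between replicates. COR15A then went most closely with AT3G26450 (r = 0.959 over the 12 deviations), AT1G05170 (0.954), AT3G51500 (0.934), AT1G61410 (0.933), AT4G33550 (0.930) and AFR (0.923). AT3G26450 stood at 9.70, 9.03 and 10.20 in sid2-1 and at 9.65, 9.23 and 10.33 in WT at 22 °C, in the same 3, 1, 2 order as COR15A. Its response to cold was the opposite of COR15A, as it fell by 2.39 on the log2 scale (SE 0.26, adjusted p = 0.000548), and all 6 of these genes had lower means at 4 °C. AT3G51500 and AT4G33550 passed the test as well, with log2 changes of -0.88 ± 0.22 and -1.68 ± 0.49 (SE), and AT1G05170, AT1G61410 and AFR did not. COR15B went most closely with AT5G64880 (0.922), AT1G19690 (0.895), AT5G02940 (0.884), AT5G27700 (0.873), AT2G37800 (0.869) and AT5G25270 (0.866). AT2G37800 held the same value, 4.42, on 9 arrays, all 6 cold ones among them, so that its correlation rests on 3 warm arrays. On this measure COR15A and COR15B correlated at 0.279, and COR15B ranked 1934 of 6668 for COR15A. That value pools both temperatures. In the cold their difference was nearly fixed (SD 0.017 in sid2-1 and 0.067 in WT), while at 22 °C its SD was 1.12 in sid2-1 and 1.30 in WT. Both genes varied more at 22 °C, so that their correlations of deviations weigh the warm arrays most.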

How the data were processed

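Transcripts were measured in 12 shoot samples, 1 array each, grouped by the genotype and temperature in the titles. The authors deposited log2 signals per probe set. GCRMA and limma are named in the submitters' processing notes, their versions not being given in the sources used here, and nothing says which arrays were normalized jointly. Values were used as deposited. Of 22810 probe sets, 64 controls were left out. Probe sets were joined to genes by the platform annotation and by Entrez number to the TAIR10.1 gene table, which named 13436 of the 22746 tested. Genes called measured are those named in this way. The annotation gave no gene for 8730 tested probe sets and several genes for 503. A gene left unmeasured here may thus still be on the array. ICS1 was not analysed here, so the genotype was not checked on it.

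Group means were fitted to the 12 arrays with limma 3.58.1 in R 4.3.3 (8 residual and 0.61 prior degrees of freedom), adjusted by Benjamini-Hochberg over 22746 probe sets and called at 0.05, with 95% intervals from the moderated fit. The code was tested on simulated data. Likeness and pairing used probe sets with a mean above 4. Same-numbered arrays of both genotypes deviated together within each temperature (all 6 correlations above 0.1) but not in every pair across temperatures (0.000 to 0.244), so the number was taken as a block within each temperature for genotype contrasts, an alternative added after the data were seen. Other alternatives were a block over all arrays, the compared groups alone, a filter on dim probe sets, another variance prior, centring, raising low values to 4, and leaving out arrays. Genes were named as up to 4 called members of a list with the largest mean response (with none called, the 2 of smallest p), the 6 most like each gene on either measure, and the measured neighbours. COR47, AT4G30650, AT4G30660 and the LEA_4 genes other than COR15A and COR15B were named after their values were seen. The members and lists were chosen with earlier results of these data known. Precision is limited by having 3 arrays a group. Tables and plots used Python 3.11.15, pandas 2.3.3 and matplotlib 3.10.9.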

Additional observations from a re-analysis of the deposited data

How the results depend on the processing

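The cold responses of COR15B and the mean cold response of COR15A were called under every alternative run. Fitting the compared groups alone ended the COR15A call in WT (log2 change 3.06) and in sid2-1 (3.05), where fewer samples give fewer degrees of freedom. No COR15A or COR15B call was made or lost under a block by number over all arrays or within temperatures. Leaving out each array gave cold responses of 2.46 to 3.65 for COR15A in sid2-1, 2.57 to 3.62 in WT and 2.76 to 3.35 in the mean, and for COR15B 3.38 to 3.83 in sid2-1, 3.25 to 4.05 in WT and 3.42 to 3.82 in the mean. Genotype differences, never called, ranged from -0.24 to 0.16 at 4 °C and -0.60 to 0.59 at 22 °C for COR15A, and 0.05 to 0.42 at 4 °C and -0.072 to 0.723 at 22 °C for COR15B. The interaction ranged from -0.60 to 0.59 for COR15A and -0.46 to 0.33 for COR15B, with sign turns also at -0.0033 for COR15B with centred arrays and 0.027 for COR15A without the 22 °C arrays numbered 3. COR15A minus COR15B ranged from -0.80 without WT replicate 1 to -0.17 without WT replicate 3 at 22 °C (exact p from 0.065 to 0.830), was -0.525 (exact p = 0.406) with sign flips of same-numbered pairs as a replicate block, and turned to 0.15 without both arrays numbered 3.

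Counts of called probe sets depended more on the setting. With the compared groups alone they were 376 in the cold response of sid2-1, 1407 in that of WT, 0 between genotypes at 4 °C (1504 at an unadjusted p under 0.05) and 2 at 22 °C. With dim probe sets left out they were 2310 in sid2-1, 279 at 4 °C, 0 at 22 °C (360 unadjusted) and 51 in the interaction. The replicate block within each temperature gave 27 at 4 °C, 0 at 22 °C (1054 unadjusted) and 0 in the interaction (1401 unadjusted), and the replicate block over all arrays 0 at 22 °C (894 unadjusted) and 3 in the interaction. Centring gave 0 at 22 °C (662 unadjusted), and raising low values gave 0 there (446 unadjusted) and 5 in the interaction. Without both 22 °C arrays numbered 3 the counts were 864 in sid2-1, 1700 in WT, 21 at 4 °C, 17 at 22 °C and 9 in the interaction. Single arrays left out gave 788 to 1457 in sid2-1 (lowest without sid2-1 replicate 1 at 22 °C), 1865 to 2859 in WT (lowest without WT replicate 2 at 4 °C, and 1888 without WT replicate 3 at 22 °C), 84 to 281 at 4 °C, 0 (639 unadjusted without WT replicate 3 at 4 °C) to 20 (without WT replicate 3 at 22 °C) at 22 °C, 0 (873 unadjusted, without WT replicate 1 at 22 °C) to 70 (without WT replicate 3 at 4 °C) in the interaction and 3870 to 4452 in the mean response. All zero counts are limma's.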
